A study of Mus musculus with 9 samples.

Results

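The secreted Wnt antagonists and the R-spondins described here are 10 genes: Dkk1, Dkk2, Dkk3, Sfrp1, Sfrp2, Frzb, Wif1, Rspo1, Rspo2 and Rspo3. They were chosen by name, as the genes that the platform annotation gives as the only symbol of a probe set, a group of short array probes designed against the same transcript. The 10 genes have 19 probe sets and are 10 of the 18193 genes with such a probe set. RNA came from the optic cups of mouse embryos at E11.5, in the days when the edges of the optic fissure, the ventral groove of the cup, meet. The optic fissure samples held the cup cells closest to the fissure edge, and the nasal and temporal samples held the central nasal and the central temporal cup. All were cut out by laser and hybridised to Affymetrix mouse genome arrays, with 3 arrays per region lettered A, B and C, which are described as biological replicates. Strain, genotype, sex and the number of embryos behind a sample are not given in the sources used here, so p-values reflect only the spread among the samples at hand.

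Wnts are secreted ligands that bind Frizzled receptors and the co-receptors Lrp5 and Lrp6, and the canonical branch of the pathway stabilises beta-catenin, which acts with Tcf and Lef factors on target genes. Dickkopf proteins such as Dkk1 bind Lrp5 and Lrp6 and block them, whereas secreted Frizzled-related proteins and Wif1 bind the Wnt ligands themselves. R-spondins work the other way: through Lgr receptors and the membrane ubiquitin ligases Znrf3 and Rnf43 they keep Frizzled and Lrp6 on the cell surface and so raise the response to Wnt. In the mouse eye, canonical Wnt signalling is needed for the retinal pigment epithelium, and mouse embryos that lack Dkk1 fail to form the front of the head.

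Sequences upstream of 3 of these genes are shown because, of the genes with an entry in the RefSeq promoter table of GRCm38.p6, these are the ones whose fissure arrays did not overlap with the arrays of the other regions. The table has an entry for 6 of the 10 genes. Each sequence is the 250 bases before the annotated start, 5′ to 3′ on the strand of the gene, and capitals mark a match to CTTTGA, the core of a Tcf and Lef site, or to its reverse complement TCAAAG. The Dkk1 window is chr19:30549497-30549746 on the minus strand, the Frzb window is chr2:80447397-80447646 on the minus strand, and the Wif1 window is chr10:121033754-121034003 on the plus strand.
Dkk1: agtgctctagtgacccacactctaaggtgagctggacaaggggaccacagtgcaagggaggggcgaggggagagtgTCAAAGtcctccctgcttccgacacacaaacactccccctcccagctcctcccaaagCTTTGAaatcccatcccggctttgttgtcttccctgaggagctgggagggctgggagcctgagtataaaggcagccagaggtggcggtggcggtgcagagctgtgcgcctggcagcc
Frzb: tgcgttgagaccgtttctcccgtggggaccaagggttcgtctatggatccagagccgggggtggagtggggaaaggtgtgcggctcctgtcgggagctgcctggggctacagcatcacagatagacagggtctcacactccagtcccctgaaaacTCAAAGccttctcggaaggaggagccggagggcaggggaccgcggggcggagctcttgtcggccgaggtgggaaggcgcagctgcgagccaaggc
Wif1: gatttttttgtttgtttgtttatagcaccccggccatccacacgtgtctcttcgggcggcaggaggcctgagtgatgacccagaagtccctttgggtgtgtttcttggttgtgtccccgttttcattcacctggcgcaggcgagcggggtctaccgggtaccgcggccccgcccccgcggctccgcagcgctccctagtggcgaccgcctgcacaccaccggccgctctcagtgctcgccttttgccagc
The Dkk1 window holds 2 matches, which begin 174 and 117 bases before the start and lie on opposite strands, and the Frzb window holds 1, which begins 95 bases before the start. CTTTGA was found on either strand in 13.8% of the 32817 windows of this length in the table, so a match is common. The Wif1, Dkk2, Sfrp2 and Rspo1 windows had none. The homeodomain core TAATTA, which is its own reverse complement, was found in 4.85% of all windows and in none of the 6. A match is a description of the letters, not a binding site, and the lack of a match says only that these letters are not in this window.

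Levels below are the deposited intensities, which are linear, and each gene is described by the brightest of its probe sets, judged by the mean of the 9 arrays. Differences are in log2(intensity + 16) units, a scale that understates the change of dim genes. They come with their standard error (SE) and an adjusted p from limma, fitted to the 12770 genes that lay above the 40th percentile of the array on at least 3 arrays, and passing means an adjusted p below 0.05. All 10 genes were among those tested. The main fit leaves the array letter out, and calls of the 10 genes that change with the letter as a block are given beside it. Intensities of different probe sets depend on the probes, so levels are not compared between genes. In each region the bulk sample cannot tell fewer cells of a type from less RNA per cell.

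Several features of the arrays moved with the regions and stand beside the results that follow. Of the neural retina genes tested, 2 of 7 fell in the fissure and 0 rose in limma (Lhx2 rose with the letter as block, adjusted p = 0.00722), with summed intensities of 5641 to 6300 in fissure, 7305 to 8070 in nasal and 7369 to 7988 in temporal samples. Both tested ventral cup genes, Vax1 and Vax2, rose in the fissure, where their sum was 1120 to 1661, against 301 to 417 in nasal and 330 to 486 in temporal samples. The pigment epithelium list summed to 10307 to 12429 in fissure, 12281 to 14513 in nasal and 11279 to 14181 in temporal samples, so all 3 regions carried pigment cell RNA. In that list 3 of 7 genes fell (Tyr by 1.17, Oca2 by 1.39 and Mlana by 1.63 on the log2 scale), 1 rose (Mitf, 0.93), and with the block Tyrp1 fell as well (adjusted p = 0.00810). Of 10 periocular mesenchyme genes, 4 rose and 1 fell (5 rose with the block, Foxc1 being added at adjusted p = 0.00968), with sums of 1116 to 2356 in fissure, 631 to 1035 in nasal and 495 to 1056 in temporal samples. Lens genes rose in 4 of 5, with sums of 1845 to 3100 in fissure, 361 to 451 in nasal and 459 to 923 in temporal samples, and Foxe3, a lens regulator, was below the 40th percentile on every array. All 9 macrophage and leukocyte genes rose, with sums of 1777 to 2304 in fissure, 392.3 to 614 in nasal and 338 to 531 in temporal samples. C1qa, C1qc and Aif1 were above the 40th percentile only on the 3 fissure arrays. They were therefore tested only because of the region where they are high. Surface ectoderm genes fell in 2 of 4, with sums of 424 to 513 in fissure, 948 to 1448 in nasal and 776 to 1220 in temporal samples, and none of 5 endothelial genes passed with or without the block. Of 3 erythroid genes 0 passed without the block, and with it Hbb-bh1 (adjusted p = 0.00728) and Hba-x (adjusted p = 0.00494) rose, with sums of 13226 to 17720 in fissure, 9392 to 14733 in nasal and 11435 to 13283 in temporal samples. The Gapdh 3′ to 5′ probe ratio, a measure of RNA integrity and labelling, ran from 4.93 to 14.96 in fissure, 4.90 to 8.77 in nasal and 4.46 to 7.42 in temporal samples, and was lowest on the array lettered B in every region. The mean intensity of the poly-A RNA spikes was 161 to 372 in fissure, 102 to 200 in nasal and 83.8 to 181 in temporal samples. Fissure B was the least like its own region, correlating with fissure A and C at 0.964 to 0.971 and with the closest array of another region at 0.970. The part of other cell types and of RNA quality in the differences below was not tested, except where a value is given.

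In the fissure, 3 of the 10 genes rose against the mean of the nasal and temporal cup (Dkk1, Frzb and Rspo3) and 2 fell (Sfrp2 and Wif1). In this fit without the letter, Dkk2, Dkk3, Sfrp1, Rspo1 and Rspo2 did not pass. Over all tested genes, 5.72% rose and 2.88% fell in this comparison. With the array letter as a block in the fit, 4 of the 10 rose and 3 fell, against 11.0% and 6.01% of all tested genes, the additions being Dkk2 and Dkk3. The fissure arrays lay wholly above the other 6 for 3 of the 10 genes and wholly below for 2, against 8.41% and 5.76% of all tested genes. The median change of the 10 genes was 0.08, against 0.04 over all tested genes. The 10 genes were chosen by name from a pathway, and these counts are a description.

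**Figure D1:**
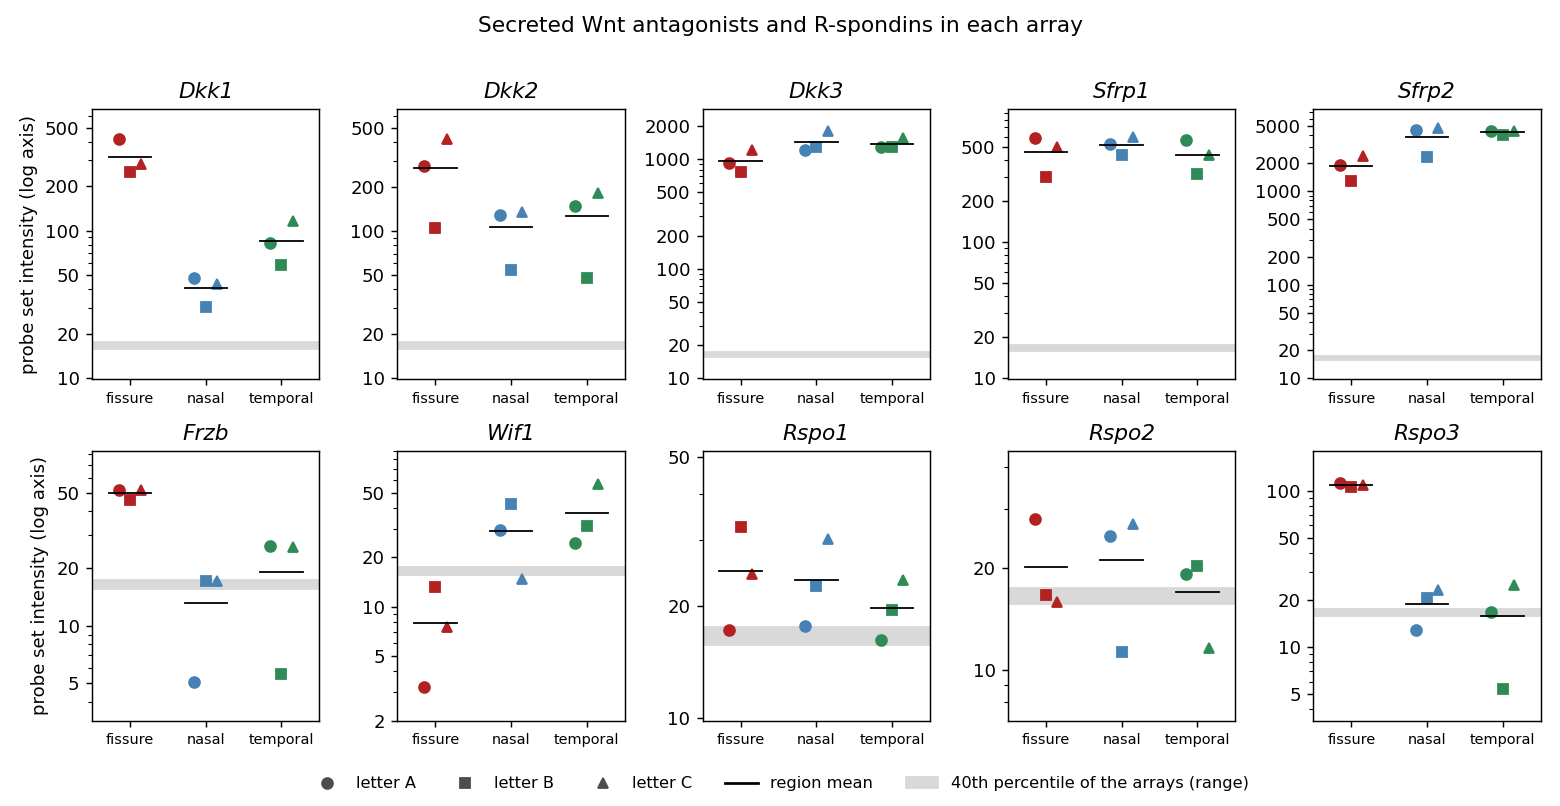
Intensity of the 10 genes on each array, on a log axis of its own for each gene, with fissure, nasal and temporal samples from left to right; each point is 1 array, each bar is the mean of 3, and the grey band is the range of the 40th percentile over the arrays. Dkk1, Frzb and Rspo3 have all 3 fissure arrays above the other 6, and Wif1 and Dkk3 have all 3 below. The fissure overlaps with at least 1 other region for Dkk2, Sfrp1, Sfrp2, Rspo1 and Rspo2.

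Of the R-spondins, Rspo3 rose strongly in the fissure and the other 2 did not pass. Rspo3, an R-spondin needed for blood vessel and placenta development in the mouse, had intensities of 112.6, 105.1 and 108.9 on fissure arrays A, B and C, against 12.9, 20.5 and 23.1 on nasal arrays and 16.8, 5.4 and 24.8 on temporal arrays. The 3 fissure values lay close together and far above the 6 others, which overlapped with each other. The means were 109 ± 3.75 in fissure samples, 18.8 ± 5.30 in nasal samples and 15.7 ± 9.75 in temporal samples (n = 3 each, SD). The change was 1.94 (SE 0.19, adjusted p = 1.03e-04) against the mean of nasal and temporal, 1.85 (SE 0.22, adjusted p = 5.32e-04) against nasal and 2.03 (SE 0.22, adjusted p = 3.03e-04) against temporal. Rspo3 was above the 40th percentile on 3 of 3 fissure arrays, 2 of 3 nasal arrays and 2 of 3 temporal arrays, so it was near the dim end of the array outside the fissure. Its other probe set was below that percentile on all 9 arrays, with values of 0.6 to 5.9, and carries no information on region. Averaging both probe sets lowered the change against the mean of nasal and temporal to 0.97, and the gene still passed.

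Rspo1, known for its part in ovary development, had 17.2, 32.6 and 24.3 on fissure arrays, 17.6, 22.5 and 30.2 on nasal arrays and 16.2, 19.5 and 23.4 on temporal arrays. Rspo2, needed in the mouse for limb and lung development, had 28, 16.7 and 15.9 on fissure arrays, 25.0, 11.3 and 27.1 on nasal arrays and 19.2, 20.4 and 11.6 on temporal arrays. The 3 regions overlapped for both genes, and both were dim. The difference between fissure and the mean of nasal and temporal was 0.11 for Rspo1 (95% interval -0.25 to 0.47, adjusted p = 0.756). For Rspo2 it was 0.05 (95% interval -0.36 to 0.46, adjusted p = 0.914). A change of the size seen for Rspo3 lies outside both intervals on this scale, which compresses dim values. The other Rspo2 probe set was below the 40th percentile on all 9 arrays.

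Of the Dickkopfs, Dkk1 rose in the fissure by the largest log2 change of the 10 genes against nasal. Dkk1, the Lrp5 and Lrp6 blocker, had 417.2, 250.5 and 284.3 on fissure arrays A, B and C, against 47.9, 30.2 and 43.3 on nasal arrays and 81.8, 58.3 and 115.6 on temporal arrays. Every fissure value was above every other value, and every temporal value was above every nasal value. The means were 317 ± 88.1 in fissure samples, 40.5 ± 9.18 in nasal samples and 85.2 ± 28.8 in temporal samples (n = 3 each, SD). The mean intensity in the fissure was therefore 7.84 times that in nasal and 3.72 times that in temporal samples. The change was 2.13 (SE 0.21, adjusted p = 1.00e-04) against the mean of nasal and temporal, 2.54 (SE 0.25, adjusted p = 1.20e-04) against nasal and 1.73 (SE 0.25, adjusted p = 0.00162) against temporal. A separate Dkk1 probe set gave 236.3, 218.5 and 162.0 on fissure arrays, 34.9, 22.6 and 34.1 on nasal arrays and 30.0, 46.2 and 63.6 on temporal arrays. In it, too, the fissure lay above both other regions without overlap, and its change against the mean of nasal and temporal was 2.05 (adjusted p = 1.33e-04 over the 28899 probe sets tested). The probe sets correlated at 0.961 over the 9 arrays, which share labelling and region.

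Dkk2, which in the mouse is made in the periocular mesenchyme and is needed for the cornea and eyelids, varied widely between the arrays of each region. It had 277.1, 103.8 and 420.9 on fissure arrays A, B and C, against 128.3, 54.5 and 135.2 on nasal arrays and 147.8, 48.0 and 181.0 on temporal arrays. The fissure overlapped with both other regions and array B was low in all 3. Within each letter, the fissure value was the highest of the 3 regions, at 1.90 to 3.11 times the nasal and 1.87 to 2.33 times the temporal value. The change against the mean of nasal and temporal was 1.04 (SE 0.44) and did not pass in the fit without the letter (adjusted p = 0.191), whereas it passed once the letter was a block (adjusted p = 9.27e-04). With the block, Dkk2 also passed against nasal (adjusted p = 0.00192) and temporal (adjusted p = 0.00428). It passed without fissure B (change 1.56, adjusted p = 0.0338) and without the 3 arrays of letter B (1.14, adjusted p = 0.00966). Without fissure C, the highest array, the change was 0.63 (adjusted p = 0.622), and of the 9 fits that left out 1 array only that without fissure B passed. With the Gapdh ratio as a covariate the change was 0.46 (adjusted p = 0.303), and with the spike intensity it was 0.63 (adjusted p = 0.753). Array B was the lowest in every region for Dkk2 and for the Gapdh ratio, as it was for Dkk1, Sfrp1 and Sfrp2. The summed periocular mesenchyme markers were higher in the fissure as well. In that list Pdgfra, Col1a2, Col3a1 and Lum rose and Dcn fell (-0.97) in the fit without the block. Twist1 (-0.38) and Prrx1 (-0.23) also went down and did not pass.

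Dkk3, a divergent Dickkopf whose part in Wnt signalling is less settled, was lower in every fissure sample than in any other, by a modest amount. It had 919.7, 761.5 and 1206 on fissure arrays, against 1207.5, 1291.7 and 1780.4 on nasal arrays and 1273.1, 1297.6 and 1546.5 on temporal arrays. The highest fissure value and the lowest nasal value were almost equal. Means were 962 ± 225 in fissure samples, 1427 ± 309 in nasal samples and 1372 ± 151 in temporal samples (n = 3 each, SD). The change against the mean of nasal and temporal was -0.54 (SE 0.18, adjusted p = 0.0918) and did not pass, but it passed with the letter as block (adjusted p = 0.0117). Against nasal it was -0.56 (adjusted p = 0.156 without and 0.0239 with the block), and against temporal -0.52 (adjusted p = 0.200 without and 0.0334 with the block). The other Dkk3 probe set had 445.3, 469.6 and 473.6 on fissure arrays, 658.2, 621.6 and 908.9 on nasal arrays and 744.2, 810.3 and 918.7 on temporal arrays, with a clear gap between fissure and the rest. Its change against the mean of nasal and temporal was -0.71 (SE 0.16) and passed (adjusted p = 0.0233 over all probe sets). The probe sets of Dkk3 therefore had the same direction and fell on different sides of the threshold in the fit without the block. Their mean passed against the mean of nasal and temporal (-0.63, adjusted p = 0.0224). Dkk3 also passed there with the Gapdh ratio (-0.72, adjusted p = 0.0113) or the spike intensity (-0.88, adjusted p = 0.0368) as a covariate. Of the 9 fits that left out 1 array, 0 passed in that comparison.

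**Figure D2:**
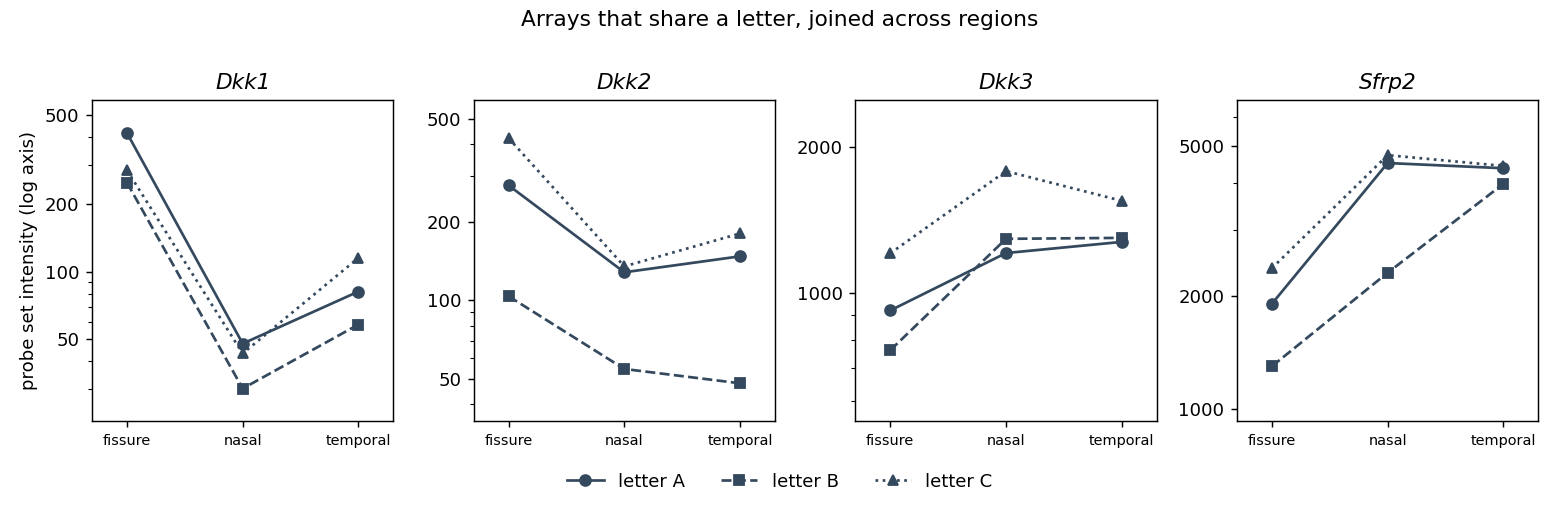
Intensity (log axis) of Dkk1, Dkk2, Dkk3 and Sfrp2 in fissure, nasal and temporal samples, with arrays that share a letter joined by a line. The fissure is the highest region in 3 of 3 letters for Dkk1 and Dkk2 and the lowest in 3 of 3 letters for Dkk3 and Sfrp2. Array B is the lowest array in all 3 regions for Dkk1, Dkk2 and Sfrp2.

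Among the Wnt-binding antagonists, Frzb rose in the fissure, Sfrp2 and Wif1 fell and Sfrp1 did not pass. Frzb, also called Sfrp3 and first studied in cartilage, had 51.4, 45.9 and 51.9 on fissure arrays, against 5.1, 17.1 and 17.2 on nasal arrays and 26.4, 5.6 and 25.8 on temporal arrays. The fissure values were tight and lay above all others, while nasal and temporal values overlapped near the dim end of the array. The change was 1.08 (SE 0.23, adjusted p = 0.0132) against the mean of nasal and temporal, 1.20 (SE 0.27, adjusted p = 0.0204) against nasal and 0.96 (SE 0.27, adjusted p = 0.0628) against temporal. With the block it also passed against temporal (adjusted p = 0.0373). The call against the mean of nasal and temporal was lost without fissure A (adjusted p = 0.0718) or fissure C (adjusted p = 0.0649), and the call against nasal without fissure A (adjusted p = 0.0849), fissure C (adjusted p = 0.0757) or nasal A (adjusted p = 0.0911). With a pseudocount of 1 neither passed, at 1.79 against the mean of nasal and temporal (adjusted p = 0.0735) and 2.01 against nasal (adjusted p = 0.0982), and with 64 the change against the mean was 0.51 and passed (adjusted p = 0.0148). With the spike intensity as a covariate the calls against the mean of nasal and temporal (adjusted p = 0.189) and nasal (adjusted p = 0.139) were lost. The other Frzb probe set was below the 40th percentile on all 9 arrays. With the mean of its probe sets Frzb did not pass the low-intensity filter and was not tested.

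Sfrp2, an antagonist of the developing retina, fell in the fissure. It had 1907.7, 1302.1 and 2372.4 on fissure arrays, against 4514.1, 2307.6 and 4736.7 on nasal arrays and 4372.4, 3974.1 and 4434.5 on temporal arrays. Fissure C was slightly above nasal B, and all other nasal and temporal values were above every fissure value. Means were 1861 ± 537 in fissure samples, 3853 ± 1343 in nasal samples and 4260 ± 249.8 in temporal samples (n = 3 each, SD), so the mean in the fissure was 0.483 times the nasal and 0.437 times the temporal mean. The change was -1.12 (SE 0.24, adjusted p = 0.0148) against the mean of nasal and temporal. Against temporal alone it was -1.23 (SE 0.28, adjusted p = 0.0270). Against nasal it was -1.02 (SE 0.28, adjusted p = 0.0588), which passed with the letter as block (adjusted p = 0.00639), and without nasal B it was -1.35 (adjusted p = 0.00985). The call against the mean of nasal and temporal was lost without fissure A (adjusted p = 0.0625). The call against temporal was lost without fissure A (adjusted p = 0.0896), fissure B (adjusted p = 0.0545), temporal A (adjusted p = 0.0851), temporal B (adjusted p = 0.0671) or temporal C (adjusted p = 0.0713), and with a pseudocount of 1 (adjusted p = 0.0641). The summed neural retina markers were also lower in the fissure, in large part through Pax6. Pax6 averaged 1565 in fissure, 3199 in nasal and 2835 in temporal samples. In the fit without the block Pax6 (-0.94) and Hes5 (-1.93) fell, while Six3 (0.20) and Lhx2 (0.62) went the other way and did not pass.

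Wif1, which also binds Wnts, had 3.2, 13.1 and 7.5 on fissure arrays, against 29.4, 42.6 and 14.8 on nasal arrays and 24.4, 31.3 and 56.5 on temporal arrays. All fissure values were below all others, and all 3 were below the 40th percentile of their arrays, so the fissure level is poorly measured and Wif1 passed the low-intensity filter only through the nasal and temporal samples. The change was -1.01 (SE 0.24, adjusted p = 0.0232) against the mean of nasal and temporal, -0.88 (SE 0.28, adjusted p = 0.0930) against nasal and -1.13 (SE 0.28, adjusted p = 0.0355) against temporal. The call against the mean of nasal and temporal was lost without fissure A (adjusted p = 0.144), fissure C (adjusted p = 0.0924) or nasal A (adjusted p = 0.0524), and the call against nasal was gained without nasal C (-1.13, adjusted p = 0.0456). The call against temporal was lost without fissure A (adjusted p = 0.167), fissure C (adjusted p = 0.111), nasal A (adjusted p = 0.0550), temporal B (adjusted p = 0.0777) or temporal C (adjusted p = 0.105). With a pseudocount of 1 the change against the mean of nasal and temporal was -1.99, and the call against temporal was lost (adjusted p = 0.0523). With a pseudocount of 64 the change was -0.42, and the calls against the mean (adjusted p = 0.0680) and temporal (adjusted p = 0.0924) were lost, and with no filter on dim genes the call against temporal was lost (adjusted p = 0.0589), as it was with the Gapdh covariate (adjusted p = 0.0636).

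Sfrp1, which acts with Sfrp2 in the mouse optic cup, had 581.1, 300.2 and 502.9 on fissure arrays, 528.3, 435.2 and 596.7 on nasal arrays and 566.3, 318.4 and 435.4 on temporal arrays. The regions overlapped throughout, and array B was the lowest in each. The difference against the mean of nasal and temporal was -0.08 (95% interval -0.58 to 0.42, adjusted p = 0.890), an interval that leaves out a change of the size seen for Sfrp2. Sfrp1 has 5 probe sets, and the other 4 had differences of -0.39 to -0.07 that did not pass over all probe sets. They correlated with the brightest probe set at -0.34 to 0.77 over the 9 arrays, so they differed in how far they followed it. The probe sets at 0.30 and 0.24 were dim, above the 40th percentile on 6 and 5 arrays. The probe set at 0.77 was above it on all 9. The probe set at -0.34 is of a kind whose probes can also match other transcripts.

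**Figure D3:**
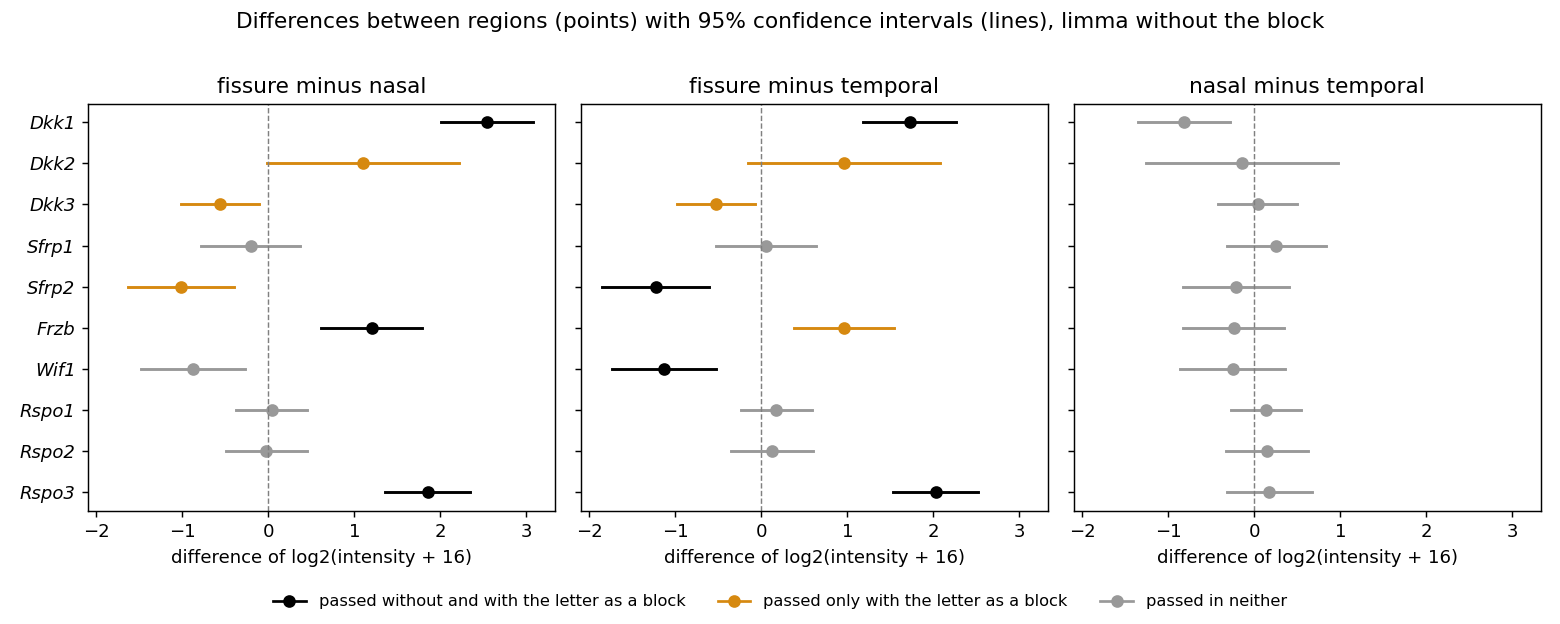
Change of the 10 genes in log2(intensity + 16) units with 95% intervals, for the fissure against nasal, the fissure against temporal, and then nasal against temporal; black passed in limma with and without the letter block, orange only with it, and grey in neither. Dkk1 and Rspo3 lie at 1.73 to 2.54 in the fissure comparisons, Sfrp2 lies at -1.02 and -1.23, and nasal against temporal intervals include 0 for every gene other than Dkk1, which did not pass after adjustment.

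Against each region alone, the counts differed because single genes crossed the threshold. Against nasal, 3 of the 10 genes rose (Dkk1, Frzb and Rspo3) and 0 fell, and over all tested genes 4.41% rose and 1.97% fell in limma. In this comparison 6 of the 10 had an unadjusted p below 0.05, against 18.5% of all tested genes. Against temporal, 2 rose (Dkk1 and Rspo3) and 2 fell (Sfrp2 and Wif1), and over all tested genes 3.47% rose and 1.90% fell. With the letter as a block, 4 rose and 2 fell against nasal, where 8.28% of tested genes rose and 4.19% fell, and 4 rose and 3 fell against temporal, where 7.70% rose and 4.37% fell. The comparisons share the fissure arrays, so they are not independent of each other.

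None of the 10 genes passed between nasal and temporal cup in limma, with or without the block, and 0.0470% of all tested genes passed in either direction. Only Dkk1 of the 10 had an unadjusted p below 0.05 in this comparison, against 2.91% of all tested genes. Its change, nasal minus temporal, was -0.82 (SE 0.25, unadjusted p = 0.00656 in limma), which did not pass after adjustment, and with the block the adjusted p was 0.253. The nasal arrays lay wholly below the temporal arrays for Dkk1, as they did for 3.71% of all tested genes. In the separate Dkk1 probe set the regions overlapped and the change was -0.40. For the other 9 genes the changes were -0.25 to 0.26, each with a 95% interval that included 0.

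Across arrays, the genes that rose in the fissure correlated with each other. Over the 9 arrays, Frzb correlated with Rspo3 at 0.921, Dkk1 with Rspo3 at 0.897 and Dkk1 with Frzb at 0.866, and Sfrp2 correlated with Dkk3 at 0.844 and with Rspo3 at -0.803. These values are descriptions over arrays that share 3 regions, so any pair of genes that differ between fissure and the rest will correlate. The tested genes most like Dkk1 were Gfra1 at 0.989, Peg3 at 0.978 and Npas1 at 0.977. The genes most like Rspo3 were Bace1 at 0.990, Egr1 at 0.989 and Bscl2 at 0.986. For Frzb they were Ada at 0.974, 1810010H24Rik at 0.970 and Hivep2 at 0.963. For Sfrp2 they were Pth1r at 0.974, Rasgef1b at 0.970 and Alms1 at 0.964, and for Wif1 they were Dtwd1 at 0.972, Wfdc1 at 0.968 and Dazl at 0.964.

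The rest of the pathway was described from lists of 65 other Wnt genes, 63 of them with a named probe set and 45 of them tested. Against the mean of the nasal and temporal samples, 5 of the 45 rose and 4 fell, with a median change of -0.09 against 0.04 over all tested genes. With the block, 6 rose and 5 fell. The shares over all tested genes were 5.72% rising and 2.88% falling without the block, and 11.0% and 6.01% with it. The same shares stand beside the counts of each list below, and these counts are a description. None passed between nasal and temporal.

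Of the 7 tested genes that serve as receptors or partners of Dickkopfs and R-spondins, 0 rose and 1 fell in limma, and with the block Sdc4, a syndecan that can bind R-spondin 3 in the frog, rose as well (0.39, adjusted p = 0.584 without and 0.0427 with the block). The gene that fell was Lgr5, an R-spondin receptor, with 137.1, 175.4 and 133.4 on fissure arrays, 306.9, 356.8 and 332.2 on nasal arrays and 327.8, 341.2 and 275.5 on temporal arrays. The fissure did not overlap with the other regions, and the change was -1.05 (SE 0.14, adjusted p = 7.24e-04). Lrp6, the co-receptor that Dkk1 blocks, averaged 303 ± 87.4 in fissure, 325 ± 36.1 in nasal and 346 ± 33.4 in temporal samples and did not pass (adjusted p = 0.629). Lgr4, an R-spondin receptor, averaged 945 ± 89.2 in fissure, 1031 ± 167 in nasal and 1071 ± 128 in temporal samples and did not pass (adjusted p = 0.624). Lrp5 and Rnf43 were too dim to be tested.

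Among 12 tested Frizzled and other Wnt receptor genes, 3 rose and 1 fell. Ror2, a receptor of the non-canonical branch, had 291.0, 257.8 and 241.6 on fissure arrays, 4.3, 35.9 and 36.8 on nasal arrays and 25.5, 38.7 and 40.9 on temporal arrays. It had the largest change of any Wnt gene described here, 2.67 (SE 0.27, adjusted p = 1.16e-04), with no overlap between fissure and the rest. Fzd1, a Frizzled receptor, averaged 2520 ± 639.6 in fissure, 518 ± 41.5 in nasal and 433 ± 100.1 in temporal samples, a change of 2.35 (SE 0.19, adjusted p = 2.57e-05). Fzd2 rose by 0.83 (SE 0.16, adjusted p = 0.00815). Ror1, the relative of Ror2, fell, averaging 209 ± 33.4 in fissure, 349 ± 50.9 in nasal and 319 ± 33.0 in temporal samples, with a change of -0.64 (SE 0.15, adjusted p = 0.0230).

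Of 12 tested Wnt ligand and secretion genes, 2 rose and 0 fell. Wnt7b, a Wnt that macrophages make in the mouse eye after birth, had 140.8, 89.2 and 103.6 on fissure arrays, 59.7, 55.4 and 29.0 on nasal arrays and 43.6, 38.3 and 57.4 on temporal arrays. The change was 1.01 (SE 0.20, adjusted p = 0.00855), and all 9 macrophage genes rose as well. Of these, C1qa, C1qc and Aif1 passed the low-intensity filter only through the fissure arrays. Ventral cup, most lens and some periocular mesenchyme genes rose too, and which cells carried the Wnt7b signal was not tested. Wls, the carrier that Wnts need to leave the cell, rose to 310 ± 42.8 in fissure, against 150 ± 16.7 in nasal and 139 ± 14.0 in temporal samples, a change of 1.02 (SE 0.14, adjusted p = 8.69e-04). Of the other secreted modulators, 6 of 11 were tested, and Draxin, an axon guidance protein that binds Lrp6, fell to 73.2 ± 19.0 in fissure, against 184 ± 49.5 in nasal and 148 ± 14.4 in temporal samples (change -1.03, SE 0.19, adjusted p = 0.00488).

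Of 8 tested feedback and target genes, 0 rose and 1 fell against the mean of nasal and temporal. Their median change was -0.30, against 0.04 over all tested genes. Bambi, a receptor-like inhibitor of TGF-beta and BMP signals that responds to beta-catenin in human tumour cells, had 45.6, 38.6 and 63.2 on fissure arrays, 209.9, 117.4 and 253.7 on nasal arrays and 160.5, 131.4 and 326.7 on temporal arrays. The change was -1.67 (SE 0.28, adjusted p = 0.00356), with no overlap between fissure and the rest. Ccnd1, a cell cycle cyclin, averaged 1346 ± 628 in fissure, 2060 ± 742 in nasal and 2394 ± 685 in temporal samples and passed only with the block (change -0.78, adjusted p = 0.183 without and 0.00279 with it). Axin2, the feedback gene most often read as a measure of canonical Wnt activity, averaged 148 ± 32.2 in fissure, 142 ± 2.27 in nasal and 141 ± 30.6 in temporal samples, with a change of 0.05 (SE 0.17, adjusted p = 0.910).

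**Figure D4:**
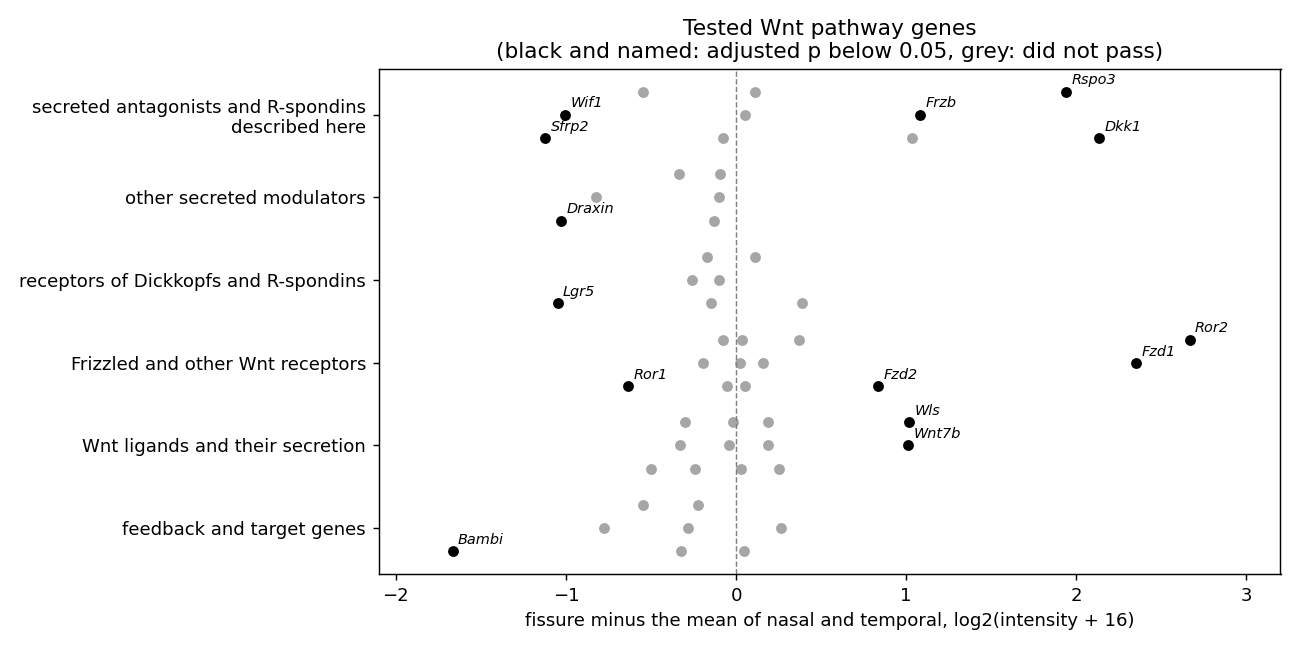
Change in log2(intensity + 16) units, fissure minus the mean of nasal and temporal, for the 10 genes described here and 45 other tested Wnt genes, by list; black points are named and passed limma at an adjusted p below 0.05. Ror2 at 2.67, Fzd1 at 2.35, Dkk1 at 2.13 and Rspo3 at 1.94 lie farthest to the right and Bambi at -1.67 farthest to the left.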

How the data were processed

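Total RNA of laser-cut optic cup regions was measured on 9 arrays, 3 per region. The deposited intensities are linear and were given per probe set, and the sources used here do not say how the authors summarised and scaled them. The mean after trimming 2% from each end was 150 on every array, so the authors' intensities had been scaled, and they were used as deposited. Each array has 45101 probe sets, of which 64 are controls, 34945 have 1 gene symbol in the platform annotation, 932 have several and 9160 have none listed. Symbols can be old; the 10 genes matched the RefSeq gene table of GRCm38.p6 by gene ID. The brightest named probe set stood for each gene. Log2(intensity + 16) was fitted with 1 mean per region over all 9 arrays in limma 3.58.1 (lmFit, eBayes) under R 4.3.3, and p-values were adjusted by Benjamini-Hochberg over the 12770 genes above the 40th percentile on at least 3 arrays. The fit was run on simulated data, drawn for each array on its own without a letter effect. That run does not cover the same-letter correlation given below. Figures were drawn with matplotlib 3.10.9 in Python 3.11.15. Detection calls were not used, and the number of arrays limits the precision.

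The labels do not say that letters pair the samples. Deviations of arrays from their region means had correlations of 0.166 to 0.487 in the 9 pairs of arrays with the same letter and of -0.438 to 0.218 in the 18 other pairs. Every same-letter pair was above 0.1, so the data point to a pairing by letter. The main counts and adjusted p leave the letter out all the same, since the labels do not state a pairing. They therefore ignore the spread that arrays of 1 letter share. A fit that has the letter as block is given where it changes the call of a member. No pair of arrays was a duplicate: at most 0.809% of values were equal.

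The members, the Wnt and marker lists and the tests were chosen with earlier results of these data known. Named genes were all 10 members, up to 4 genes of each Wnt list that passed in any comparison, and the 3 genes most correlated with each member that passed. Lrp6, Lgr4, Lrp5, Rnf43, Sdc4, Ccnd1 and Axin2 were added for their roles after their values were seen. The alternatives were no filter, a 60th percentile filter, quantile normalization, pseudocounts of 1 and 64, the mean of all probe sets, a variance trend, the block, 2 regions only, each array left out, and letter B left out. The Gapdh ratio and the poly-A spike intensity as covariates were added after seeing the data.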

Additional observations from a re-analysis of the deposited data

How the results depend on the processing

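Of 805 values of single members under the alternatives, 749 kept their side of the threshold, 23 passed where they had not, 33 no longer passed and 0 reversed a call. Of the 749, 711 also kept their sign, and the other 38 belong to differences that had not passed. Most of the 805 values belong to differences that had not passed in the main fit, so the total says little about the calls. Dkk1 and Rspo3 passed against the mean of nasal and temporal, against nasal and against temporal under every alternative run. All values that no longer passed belong to Sfrp2, Frzb and Wif1. Against the mean of nasal and temporal, Sfrp2 passed in 18 of 20 alternatives that tested it, Frzb in 14 of 18 and Wif1 in 14 of 19. Against temporal, Sfrp2 passed in 14 of 21 and Wif1 in 10 of 20, and against nasal Frzb passed in 14 of 19. With the replicate block, 7 members passed against temporal (4 without it) and 6 against nasal (3 without it), and the genes passing numbered 2172 against the mean of nasal and temporal (1098 without it), 1592 against nasal (814), 1541 against temporal (685) and 17 between nasal and temporal (6). The member calls that the block changed are those of Dkk2 and Dkk3 in all 3 fissure comparisons, Sfrp2 against nasal and Frzb against temporal. A 60th percentile filter left 3 members against the mean of nasal and temporal (5 otherwise), since it left Frzb and Wif1 untested, and a pseudocount of 1 left 2 against temporal. Without letter B, 5 members passed against nasal, and 3 genes passed between nasal and temporal, as they did with only those 2 regions in the fit. The Gapdh covariate gave 5 members against nasal and 10 genes between nasal and temporal. The spike covariate left 3 members against the mean of nasal and temporal (Dkk1, Dkk3 and Rspo3) and 2 against temporal, with 443, 414 and 285 genes passing against the mean, nasal and temporal, and adjusted p of 0.0663 for Sfrp2, 0.189 for Frzb and 0.106 for Wif1. The cause of these shifts was not tested. Leaving out each array in turn gave 486 to 1652 genes against the mean of nasal and temporal (lowest without fissure A, highest without fissure B), 373 to 1181 against nasal, 329 to 1101 against temporal and 2 to 8 between nasal and temporal. Members then numbered 2 to 6 against the mean of nasal and temporal, 2 to 4 against nasal and 2 to 4 against temporal. With 3 arrays per region and dim values for Frzb, Wif1, Rspo1 and Rspo2, small changes in these genes were not detectable.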
